A study of Mus musculus with 67 samples.

Results

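Antigen receptor activation of B cells from mice with experimental autoimmune encephalomyelitis (EAE, an immunization model of autoimmune demyelination) was described from 6 RNA sequencing libraries of the 67 deposited samples. The activated group, 3 libraries labelled B Cells-EAE+anti-IgM/G+CtrlIg, held purified B cells of EAE C57BL/6 mice. These cells were given antibody to IgM and IgG and a control immunoglobulin, with latex beads, for 18 h and without interferon beta. The methods of the study do not make plain whether the antibody to IgM and IgG was itself on the beads. The unstimulated group, 3 libraries labelled B Cells-EAE, held purified B cells of EAE C57BL/6 mice that received none of these agents. Libraries were chosen by label alone, and no measured value entered the choice. The contrast therefore carried the antibody, the beads and the control immunoglobulin together, and whether the unstimulated cells were also kept in culture for 18 h is not given in the sources used here, so an effect of culture and an effect of the receptor cannot be told apart. Cells came from spleens and lymph nodes and were enriched with a kit. The labels number the libraries 1 to 3 and do not say that numbers are separate animals, so p-values here reflect only how far these libraries spread, which may be technical. The age of the mice is not given in the labels.

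The B cell antigen receptor joins membrane immunoglobulin to the signaling chains Cd79a and Cd79b. When antigen or antibody crosslinks it, the kinases Lyn, Syk and Btk relay the signal to calcium, Erk and NF-kB, and a B cell leaves quiescence, grows, raises protein synthesis and prepares to divide. Without help from T cells this response is limited by inhibitory receptors, among them Cd22, Fcgr2b and Btla. Btla, which binds the herpesvirus entry mediator Tnfrsf14, is the receptor whose antibody was tested in other samples of the study.

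Depth was 36285628 to 62073703 counts in activated libraries and 40106430 to 50963160 counts in unstimulated libraries. Levels are given as CPM, counts per 1000000 counts of the library after TMM scaling. The mitochondrial genome took 4.49% to 5.15% of the counts of activated libraries, against 3.78% to 4.60% of the counts of unstimulated libraries. Transcripts of 15 B cell marker genes were abundant in every library, so the label B cells held, and their summed level was 7640 to 8600 CPM in activated libraries, against 12000 to 12500 CPM in unstimulated libraries. Marker sums are per 1000000 counts without the TMM factors. Markers of other cells were scarcer. Summed levels were 45.2 to 57.9 CPM in activated and 65.5 to 77.4 CPM in unstimulated libraries for 18 T cell markers, 39.3 to 53.1 CPM and 30.9 to 48.5 CPM for 16 monocyte and macrophage markers, 150 to 190 CPM and 177 to 345 CPM for 12 dendritic cell markers, and 12.2 to 13.7 CPM and 16.4 to 21.7 CPM for 13 neutrophil markers. Single genes made up much of these sums. Ly6d gave most of the dendritic cell sum, at 101 to 141 CPM in activated and 122 to 292 CPM in unstimulated libraries. Clec9a, Clec10a, Batf3 and Cd209a stayed under 1 CPM in every library. Cd2 and Lck gave most of the T cell sum, and Adgre1 was the largest of the monocyte and macrophage markers. What part such cells had in any result was not tested. The T cell chain Cd3e stayed under 1 CPM in all 6 libraries. For NK cell markers and interferon-stimulated genes replicate 1 stood apart in both groups. The 12 NK cell markers summed to 54.4 CPM in its activated and 49.8 CPM in its unstimulated library, against 10.4 to 19.4 CPM in the other 4 libraries. The 38 type I interferon-stimulated genes summed to 3330 CPM in its activated and 3120 CPM in its unstimulated library, against 1430 to 2160 CPM in the other 4. In bulk samples of this kind, fewer cells of a type and less RNA per cell cannot be told apart.

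Which genes changed with activation was asked of 17007 genes by the edgeR quasi-likelihood test with the replicate number as a block, with calls at an adjusted p under 0.05 (Benjamini-Hochberg over all genes tested). Activated cells had 3576 genes higher, 21% of those tested, and 3190 genes lower, 18.8%, in all 39.8%. Counts of listed genes given below stand beside these shares. Most changes were small, and 85.6% of called genes differed by less than 2-fold. At 2-fold or more, 475 genes were higher (2.79%) and 498 lower (2.93%). Of 6766 called genes, 97.2% had one direction in all 3 pairs of libraries with a shared number, and 85.0% had no overlap between the groups. Over all genes with or without a call, 21.4% were higher in each activated library than in any unstimulated library, and 20.1% were lower in each. The median gene changed by -0.053 on the log2 scale. The split between directions depended on the scaling: with library totals in place of TMM factors the median gene stood at -0.184, and 2526 genes were higher and 4949 lower (33.8% of called genes higher, against 52.9%), and with upper quartile scaling the counts were 2844 and 4255 (40.1% higher). Leaving out the pair of replicate 1 left 2736 genes higher and 1790 lower, and leaving out its activated library alone left 3087 and 2026. Of the 397 genes followed by name, 68 lost their call without the block. Among those described here they were B2m, Batf, Bhlhe40, Bst2, Btk, Ccl3, Ccl4, Ccnd3, Cd274, Cdt1, Csf1, Ctla4, Ddit3, Ifng, Il2rb, Il6, Irf4, Klf10, Mcl1, Mki67, Mlxip, Mxd4, Nfatc1, Nfkbia, Nlrc5, Prdm1, Psmb8, Rela, Scd1, Slc3a2, Slfn2, Tapbp, Tk1 and Trib3. Leaving out 1 of the 3 pairs ended the call for Batf, Bhlhe40, Btk, Ccl3, Ccnd3, Cdt1, Cxcr3, Ddit3, Foxo1, Il6, Irf4, Klf10, Mcl1, Mga, Mlxip, Mnt, Mxd4, Nfatc1, Nfkb2, Nfkbia, Rela, Relb, Tapbp, Tk1 and Trib3. The plot of fitted change by level shows both directions at every level of expression.

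**Figure D1:**
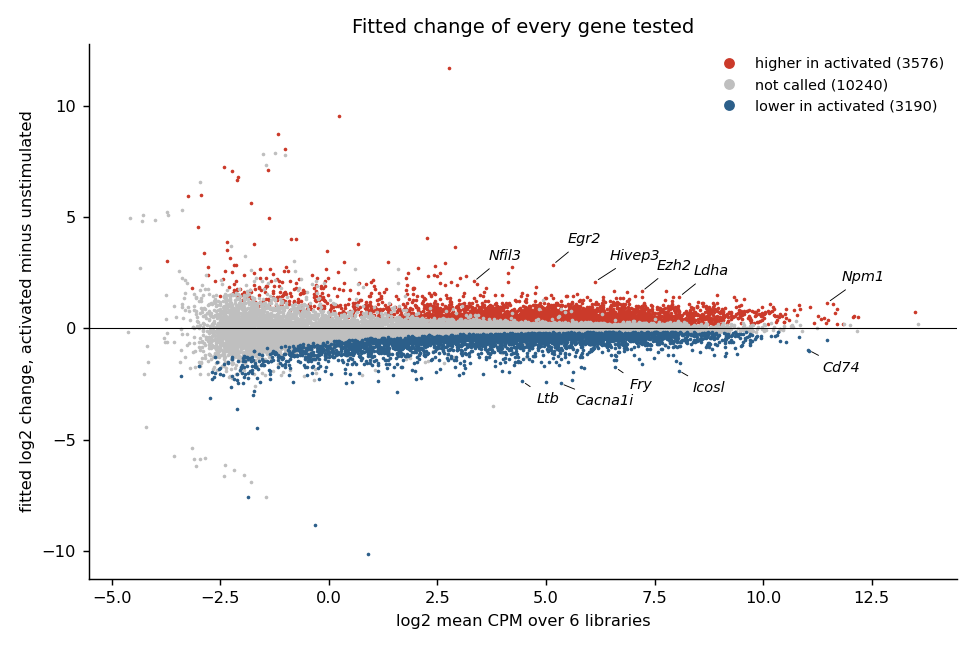
Fitted log2 change (activated minus unstimulated EAE B cells, y axis) against log2 mean CPM over the 6 libraries (x axis) for the genes tested, where each point is 1 gene and color gives the call at adjusted p under 0.05. Called genes numbered 3576 higher and 3190 lower in activated cells, and points far from 0 at the left are genes with few counts; 1 gene with no count in these 6 libraries is not drawn.

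The 10 largest increases among called genes that averaged 10 CPM or more included transcription factors and signaling proteins. Egr2, a zinc finger factor of the early growth response family on chromosome 10, had 55.4, 73.2 and 60.0 CPM in the activated libraries, against 10.4, 7.58 and 7.78 CPM in the unstimulated libraries. Every activated library lay far above every unstimulated one (log2 change 2.86 ± 0.13, adjusted p = 9.18e-09). Asph, an aspartyl hydroxylase of the endoplasmic reticulum, had 32.3, 32.1 and 32 CPM when activated, against 5.73, 4.38 and 4.30 CPM when unstimulated (log2 change 2.76 ± 0.11, adjusted p = 5.50e-09), in an annotation that overlaps Clvs1 on the opposite strand. Nfil3, a leucine zipper repressor, had 22.1, 12.7 and 14.6 CPM when activated, against 4.89, 3.14 and 3.33 CPM when unstimulated (log2 change 2.11 ± 0.10, adjusted p = 9.66e-09). Hivep3 (log2 change 2.10, which overlaps AL607142.1 on the same strand), the carbonic anhydrase Car2 (2.08), the kinetochore protein gene Kntc1 (1.98), the G protein regulator Rgs2 (1.84), the chemokine Ccl22 (1.79), Cldnd1 (1.69) and the predicted gene Gm12355 (2.48) completed the set. None of the 10 overlapped between groups.

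The 10 largest decreases included a calcium channel subunit, a cytokine, a costimulatory ligand and an apolipoprotein. Cacna1i, a subunit of T-type calcium channels, had 11.2, 10.4 and 15.7 CPM in the activated libraries, against 61.3, 80.3 and 63.6 CPM in the unstimulated libraries (log2 change -2.47 ± 0.15, adjusted p = 6.46e-08). Ltb, the membrane lymphotoxin subunit that shapes lymphoid tissue, had 7.04, 5.68 and 8.29 CPM when activated, against 34.3, 46.7 and 29.6 CPM when unstimulated (log2 change -2.38 ± 0.18, adjusted p = 3.09e-07). Icosl, the ligand of the T cell costimulatory receptor Icos, had 121, 103 and 115 CPM when activated, against 421, 443 and 392 CPM when unstimulated (log2 change -1.89 ± 0.086, adjusted p = 7.02e-09). All 3 genes were lower in each activated library than in any unstimulated library. The phosphodiesterase Pde2a (log2 change -2.33) ranged from 3.78 to 31.5 CPM among activated libraries and overlaps Gm45837 on the same strand. Stac2 (-2.05), the apolipoprotein Apoe (-1.96), Map3k19 (-1.95), Sema5a (-1.92), Nxpe4 (-1.76) and Fry (-1.75) were the others.

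**Figure D2:**
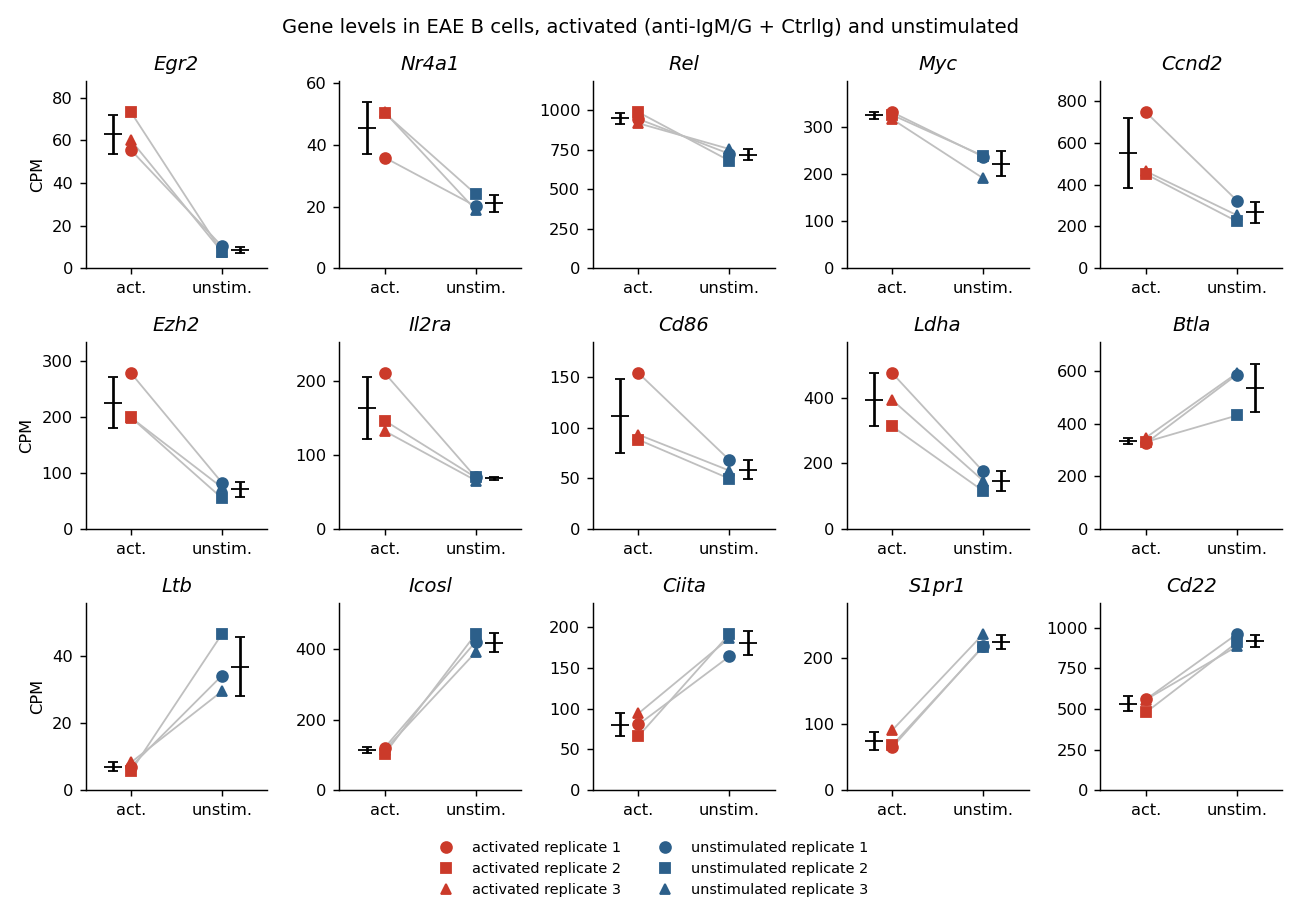
Level in CPM (y axis, from 0) of 15 genes in the 3 activated (act., left of each panel) and 3 unstimulated (unstim., right) EAE B cell libraries, with lines joining libraries of the same number and bars giving the mean and SD (n = 3 each). Egr2, Nr4a1, Rel, Myc, Ccnd2, Ezh2, Il2ra, Cd86 and Ldha were higher in each activated library than in any unstimulated library, and Btla, Ltb, Icosl, Ciita, S1pr1 and Cd22 were lower.

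Genes of the antigen receptor itself and of its signaling chain were more often lower than higher in activated cells. Among 26 genes of the complex and its positive signaling, 14 fell and 3 rose, with a median change of -0.25. Cd79a, the signaling chain that starts the cascade, had 473, 352 and 458 CPM in the activated libraries, against 776, 684 and 585 CPM in the unstimulated libraries (log2 change -0.68 ± 0.097, adjusted p = 7.52e-05). The 2 groups did not overlap. Syk, the kinase that docks on phosphorylated Cd79 chains, had 298, 299 and 337 CPM when activated, against 541, 582 and 552 CPM when unstimulated (log2 change -0.85 ± 0.061, adjusted p = 1.86e-07). Cr2, the complement receptor, had the largest fall of the list, with 108, 149 and 162 CPM when activated, against 394, 332 and 492 CPM when unstimulated (log2 change -1.55 ± 0.12, adjusted p = 2.70e-07). Btk fell slightly (-0.18), and Plcg2, the phospholipase that opens the calcium branch, was not called (log2 change -0.23 ± 0.11, adjusted p = 0.117). Of the 3 genes that rose, Vav3, a guanine nucleotide exchange factor, had 81, 91.6 and 94 CPM when activated, against 35.8, 27 and 37.3 CPM when unstimulated (log2 change 1.42 ± 0.096, adjusted p = 1.27e-07), the Src family kinase Fyn changed by 0.63 and the adaptor Pik3ap1 by 0.28, a call that was lost with library totals.

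Inhibitory receptors and phosphatases, which oppose these signals, also shifted downward, with 13 of 22 genes lower and 3 higher (median -0.31). Btla had 326, 330.4 and 347 CPM in the activated libraries, against 585, 430.5 and 591 CPM in the unstimulated libraries. Its activated libraries lay close together and below the lowest unstimulated library (log2 change -0.67 ± 0.098, adjusted p = 9.22e-05). Its ligand Tnfrsf14 had 10.8, 6.85 and 6.78 CPM when activated, against 9.18, 7.67 and 6.43 CPM when unstimulated, with overlapping groups and no call (log2 change 0.049 ± 0.12, adjusted p = 0.776). Cd22, a lectin that recruits the phosphatase Ptpn6, had 559, 479 and 558 CPM when activated, against 962, 909.7 and 886 CPM when unstimulated (log2 change -0.79 ± 0.064, adjusted p = 4.60e-07). Siglecg, a related lectin, changed by -0.79, Pirb by -0.86, Pecam1 by -0.74 and Ceacam1 by -0.64, all called. Fcgr2b, the inhibitory receptor for IgG Fc, was not called (log2 change 0.13 ± 0.054, adjusted p = 0.0728). The 3 genes that rose encode receptors better known from T cells and were at low levels: Ctla4 had 9.41, 3.82 and 5.26 CPM when activated, against 4.02, 1.56 and 3.23 CPM when unstimulated, Lag3 reached at most 2.13 CPM and Pdcd1 at most 1.11 CPM. With library totals the receptor list had 2 genes higher and 19 lower, and the inhibitory list had 3 and 13.

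Early response transcription factors, which are switched on within minutes to hours of receptor signaling, were partly higher after 18 h. Of 26 tested, 14 rose and 4 fell (median 0.42). Egr1 had 102, 127 and 116 CPM in the activated libraries, against 42.1, 44.9 and 42.2 CPM in the unstimulated libraries (log2 change 1.41 ± 0.12, adjusted p = 8.99e-07). Egr3 had 274, 319 and 318 CPM when activated, against 155, 94.7 and 129 CPM when unstimulated (log2 change 1.29 ± 0.13, adjusted p = 3.15e-06). The orphan nuclear receptor Nr4a1, a common reporter of antigen receptor signaling, had 35.9, 50.2 and 50.5 CPM when activated, against 20.1, 24.1 and 18.9 CPM when unstimulated (log2 change 1.11 ± 0.16, adjusted p = 7.14e-05). For these genes all activated libraries lay above all unstimulated ones, and Nr4a2 (2.79) and Nr4a3 (1.51) did the same. Of 8 members of the AP-1 family tested, 3 rose. Fosl2 had 5.76, 5.23 and 6.75 CPM when activated, against 2.48, 1.60 and 1.08 CPM when unstimulated (log2 change 1.83 ± 0.22, adjusted p = 1.96e-05), Fosl1 rose at levels of at most 1.14 CPM (log2 change 1.84 ± 0.51, adjusted p = 0.0111; not called without the pair of replicate 2 or 3), and Batf passed just under the threshold of 0.05 (log2 change 0.29 ± 0.11, adjusted p = 0.05), a call lost with library totals or upper quartile scaling. Fos was at or under 1.23 CPM in every library and was not called, and neither were Fosb, Jun, Junb and Jund. Irf4, a factor of activated B cells and plasma cells, was already abundant in unstimulated cells and had 509, 592 and 551 CPM when activated, against 487, 469.8 and 471 CPM when unstimulated (log2 change 0.21 ± 0.061, adjusted p = 0.0158), a call lost with library totals or upper quartile scaling. Ier5, Bhlhe40, Klf10 and Nfatc1 fell, with log2 changes of -0.50, -0.25, -0.25 and -0.21, and of these Ier5 alone was called without the block or without the pair of replicate 2.

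Of 19 NF-kB subunits and feedback regulators 2 rose, 9 fell and 8 were not called. The 2 that rose were Rel and Nfkb1, the subunits of the canonical dimer typical of mature B cells. Rel had 945, 987 and 918 CPM in the activated libraries, against 724, 681 and 755 CPM in the unstimulated libraries (log2 change 0.40 ± 0.066, adjusted p = 2.68e-04). Nfkb1 had 394, 388 and 369 CPM when activated, against 283, 297 and 314 CPM when unstimulated (log2 change 0.36 ± 0.062, adjusted p = 3.52e-04). The 9 genes that fell, against 4 without the pair of replicate 2, included the subunit Rela (log2 change -0.32 ± 0.11, adjusted p = 0.0395), Nfkb2 (-0.49) and Relb (-0.55) of the alternative pathway and the inhibitors Nfkbia, Nfkbid (-0.62), Nfkbiz (-0.51) and Tnfaip3. Tnfaip3, a ubiquitin editing enzyme that ends NF-kB signaling, had 139, 143 and 128 CPM when activated, against 191, 179 and 182 CPM when unstimulated (log2 change -0.43 ± 0.062, adjusted p = 8.27e-05). Its groups did not overlap, whereas those of Nfkbia did (log2 change -0.32 ± 0.086, adjusted p = 0.00909).

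Promoters of these genes were read for the NF-kB letters GGANTTTCC, on either strand, in the 250 bases before each start (RefSeq, GRCm38.p6). A match was found in 4 of 16 genes of this list that had a promoter in the table (25%) and in 5 of 30 genes of the cytokine list (16.7%), against 1.25% of 27025 genes. Stretches of 6 promoters are printed because matching genes moved in both directions: Nfkbia, Tnfaip3, Nfkb2 and Ltb fell, and Csf1 and Il6 rose. Capitals mark the match, which is a description and not evidence of binding. They lie at chr12:55492648-55492712 (Nfkbia, minus strand), chr10:19015411-19015470 (Tnfaip3, minus strand), chr19:46305680-46305750 (Nfkb2, plus strand), chr17:35194384-35194464 (Ltb, plus strand), chr3:107760579-107760659 (Csf1, minus strand) and chr5:30013035-30013113 (Il6, plus strand), and each reads toward its gene.
Nfkbia: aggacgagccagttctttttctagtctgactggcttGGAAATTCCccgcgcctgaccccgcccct
Tnfaip3: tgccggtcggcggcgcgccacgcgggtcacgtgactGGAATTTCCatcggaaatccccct
Nfkb2: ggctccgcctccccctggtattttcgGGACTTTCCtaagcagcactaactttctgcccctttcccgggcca
Ltb: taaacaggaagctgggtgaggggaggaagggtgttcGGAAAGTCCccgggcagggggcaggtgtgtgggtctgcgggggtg
Csf1: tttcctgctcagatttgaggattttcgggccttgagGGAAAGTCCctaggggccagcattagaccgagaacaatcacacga
Il6: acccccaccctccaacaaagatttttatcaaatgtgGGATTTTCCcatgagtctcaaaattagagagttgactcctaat

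A list of feedback inhibitors of Erk signaling, which also held the G protein regulators Rgs1, Rgs2 and Rgs16, rose in 8 of 12 cases and fell in 1 (median 0.43). The largest rise was that of Rgs1. Dusp4, a nuclear phosphatase for Erk, had 37.4, 27.7 and 32.9 CPM in the activated libraries, against 10.6, 12.4 and 9.67 CPM in the unstimulated libraries (log2 change 1.57 ± 0.16, adjusted p = 3.25e-06). Rgs1, which dampens chemokine receptor signaling, had 11.3, 10.6 and 11.7 CPM when activated, against 2.21, 0.677 and 1.67 CPM when unstimulated (log2 change 2.95 ± 0.21, adjusted p = 1.94e-07). Dusp6, the cytoplasmic Erk phosphatase, moved the other way (log2 change -0.57 ± 0.13, adjusted p = 0.00264), and Dusp1 and Dusp5 were not called. With library totals the counts were 6 higher and 3 lower.

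Of 32 cytokines and chemokines tested, 9 rose and 7 fell (median 0.010), where 21% of all genes rose and 18.8% fell. Without the block 1 was higher and 5 were lower. Ccl22, a chemokine for Ccr4 on T helper and regulatory T cells, had 28.1, 9.51 and 20.2 CPM in the activated libraries, against 7.94, 3.70 and 4.62 CPM in the unstimulated libraries (log2 change 1.79 ± 0.16, adjusted p = 1.08e-06). The inflammatory chemokines Ccl3 (log2 change 0.61 ± 0.18, adjusted p = 0.0165) and Ccl4 (log2 change 1.23 ± 0.27, adjusted p = 0.00221) rose by less. Csf1, the macrophage growth factor, had 27.1, 11.6 and 14.4 CPM when activated, against 11.1, 3.77 and 3.62 CPM when unstimulated (log2 change 1.63 ± 0.19, adjusted p = 1.10e-05). In Ccl22 and Csf1 replicate 1 was the highest library of each group. Il6 had 47.9, 43.5 and 36.2 CPM when activated, against 40.6, 27.6 and 34.8 CPM when unstimulated, groups that overlapped (log2 change 0.31 ± 0.10, adjusted p = 0.027), and its call was lost with library totals or upper quartile scaling. Tnf was not called (log2 change 0.12 ± 0.21, adjusted p = 0.681), nor was Il10, at 0.372 to 1.37 CPM. Both lymphotoxin genes fell: besides Ltb, Lta had 1.28, 1.35 and 1.49 CPM when activated, against 6.43, 7.40 and 6.16 CPM when unstimulated (log2 change -2.28 ± 0.21, adjusted p = 1.30e-06). Tgfb3 (-2.02) and Il16 (-0.64) fell as well. Ifng, a product of T and NK cells, was called higher (log2 change 3.00 ± 0.33, adjusted p = 6.85e-06) but reached 5.97 CPM only in the activated replicate 1, the pair with the most NK marker transcripts, and stayed at or under 0.819 CPM elsewhere; the part of other cells in it was not tested.

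Among 31 cytokine receptors 12 rose and 9 fell, with 11 of each called with library totals and 7 higher without the block. Il2ra, the high-affinity chain of the interleukin-2 receptor, had 211, 147 and 133 CPM in the activated libraries, against 70.2, 70.1 and 65.9 CPM in the unstimulated libraries (log2 change 1.22 ± 0.096, adjusted p = 4.05e-07). Il2rb, which signals with it, had 28.3, 6.96 and 14.5 CPM when activated, against 15.1, 3.59 and 4.17 CPM when unstimulated (log2 change 1.23 ± 0.18, adjusted p = 8.91e-05), with overlapping groups. Il2rb was also the most abundant of the listed NK cell markers in each library, and replicate 1 was the highest library of each group. The part of NK cells in its change was not tested. The interleukin-1 receptors Il1r1 (2.70) and Il1r2 (2.50) rose to between 5.28 and 7.33 CPM, against at most 1.32 CPM unstimulated. Il9r, the interleukin-9 receptor, had 18, 19.5 and 20.2 CPM when activated, against 55, 64.6 and 48.4 CPM when unstimulated (log2 change -1.53 ± 0.094, adjusted p = 6.44e-08), Il4ra changed by -0.70, Il6ra by -0.67 and Il10ra by -0.63. Of the receptors for the survival factor BAFF, Tnfrsf13b rose (log2 change 0.41 ± 0.09, adjusted p = 0.00218), and Tnfrsf13c was not called (log2 change -0.20 ± 0.089, adjusted p = 0.0873), although it was called lower with library totals.

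Molecules for contact with T cells changed unevenly, with 5 of 22 costimulation and adhesion genes higher and 8 lower (5 and 11 with library totals). The part that rose was near the 21% of all genes that rose, where 18.8% of all genes fell. Cd86, a ligand of Cd28 and Ctla4, had 154, 88.1 and 93.1 CPM in the activated libraries, against 68.1, 49.7 and 57.7 CPM in the unstimulated libraries (log2 change 0.89 ± 0.088, adjusted p = 2.97e-06), and its close relative Cd80 was not called (log2 change -0.26 ± 0.11, adjusted p = 0.0654). Cd44, a hyaluronan receptor of activated lymphocytes, had 221, 200.3 and 185 CPM when activated, against 139.8, 116 and 125 CPM when unstimulated (log2 change 0.67 ± 0.059, adjusted p = 1.04e-06). Opposite to these, Cd40, the receptor for T cell help, had 59.9, 57.6 and 50.6 CPM when activated, against 88.3, 99.4 and 81.2 CPM when unstimulated (log2 change -0.68 ± 0.064, adjusted p = 2.13e-06). Cd274, which encodes the ligand PD-L1, fell (log2 change -0.68) with overlapping groups. Cd69 and Cd83, classical surface markers of recent activation, were not called: Cd69 had 134, 122 and 106 CPM when activated, against 131, 108 and 117 CPM when unstimulated (log2 change 0.023 ± 0.069, adjusted p = 0.815), and Cd83 changed by 0.071.

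Among antigen presentation genes, those of MHC class II named here fell. Of 21 antigen presentation genes tested, 11 fell and 4 rose (median -0.39), where 18.8% of all genes fell and 21% rose. Without the block none was called higher. Ciita, the master factor of MHC class II transcription, had 80.7, 66.4 and 94.3 CPM in the activated libraries, against 164, 192 and 187 CPM in the unstimulated libraries (log2 change -1.18 ± 0.088, adjusted p = 2.53e-07). Its targets fell with it: H2-Aa had 640.4, 536 and 699.6 CPM when activated, against 1053, 984 and 1053 CPM when unstimulated (log2 change -0.73 ± 0.069, adjusted p = 2.05e-06), and Cd74, the invariant chain, had 1612, 1114 and 1558 CPM when activated, against 3412, 2554 and 2414 CPM when unstimulated (log2 change -0.97 ± 0.092, adjusted p = 2.12e-06). H2-Ab1 changed by -0.84, H2-Eb1 by -0.91 and the peptide editor gene H2-Ob by -1.08. Groups of these class II genes did not overlap. Of the class I genes, H2-K1 (log2 change -0.05 ± 0.077, adjusted p = 0.638) and H2-D1 (log2 change -0.061 ± 0.098, adjusted p = 0.654) were not called, and their near-identical relatives make the assignment of reads uncertain. B2m (0.48), Tapbp (0.36), Psmb8 (0.45) and Nlrc5 (0.78) were the 4 that rose. Their groups overlapped, and replicate 1 was the highest library of each group.

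Receptors that guide B cells through lymphoid tissue were mostly lower, with 14 of 24 homing and egress genes down and 4 up, or 2 up with library totals (median -0.51). S1pr1, which lets lymphocytes leave lymphoid organs, had 64.7, 67.9 and 90.5 CPM in the activated libraries, against 218, 217 and 236 CPM in the unstimulated libraries (log2 change -1.60 ± 0.08, adjusted p = 1.31e-08). Cxcr5, the follicle homing receptor, had 201, 152 and 169 CPM when activated, against 350.3, 313 and 276 CPM when unstimulated (log2 change -0.85 ± 0.083, adjusted p = 2.59e-06). The 2 groups were apart for both genes. Cnr2 (-1.13), Itgb7 (-1.49) and Cxcr4 (-0.83) fell likewise, and Ccr6, the receptor for Ccl20, rose, with 203, 193 and 208 CPM when activated, against 114, 99.9 and 113 CPM when unstimulated (log2 change 0.89 ± 0.062, adjusted p = 1.50e-07). Ccr7, which draws activated B cells toward the T cell zone, was not called (log2 change 0.20 ± 0.081, adjusted p = 0.0635). Cxcr3 (1.89) rested on activated replicate 1, at 7.34 CPM against 0.903 and 1.94 CPM in the other activated libraries, and its call was lost without the pair of replicate 1.

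Quiescence genes and targets of the FOXO factors, which keep resting lymphocytes small and out of cycle, were lower in 23 of 36 cases and higher in 5, or 3 without the block (median -0.38). Txnip, which restrains glucose uptake, had 98.6, 88.7 and 121 CPM in the activated libraries, against 240.3, 258 and 278 CPM in the unstimulated libraries (log2 change -1.34 ± 0.075, adjusted p = 3.31e-08). Tsc22d3, also called GILZ, had 52.8, 37.2 and 47.3 CPM when activated, against 95.1, 87.2 and 83.3 CPM when unstimulated (log2 change -0.96 ± 0.076, adjusted p = 3.84e-07). Klf2, which drives S1pr1 in lymphocytes, had 27.1, 16.7 and 28.8 CPM when activated, against 49.4, 46 and 38.3 CPM when unstimulated (log2 change -0.92 ± 0.14, adjusted p = 1.78e-04). Each of the 3 was lower in every activated library. Btg1 changed by -0.48, Pik3ip1 by -0.67, the Cdk inhibitor Cdkn1b by -0.43 and Foxo1 itself by -0.24. The genes that rose were Tob2, Slfn2, Tent5c, Mxd4 and Rb1, of which Mxd4 lost its call under library totals and upper quartile scaling. The FOXO letters GTAAACA stood in the promoters of 2 of 34 genes of the list, Txnip and Btg1 (5.88%, against 3.54% of all 27025 genes). Both are printed because both genes fell, with the match in capitals, at chr3:96557800-96557878 (Txnip, plus strand) and chr10:96616761-96616839 (Btg1, plus strand).
Txnip: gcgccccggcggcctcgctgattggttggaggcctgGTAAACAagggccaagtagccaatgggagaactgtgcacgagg
Btg1: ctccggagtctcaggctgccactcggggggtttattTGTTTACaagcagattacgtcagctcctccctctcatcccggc

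Factors of B cell identity fell more often than they rose, with 13 of 33 down and 8 up, where 18.8% of all genes fell and 21% rose. Pax5, the commitment factor of the lineage, had 793, 716 and 753 CPM in the activated libraries, against 1055, 1065 and 1013 CPM in the unstimulated libraries (log2 change -0.47 ± 0.058, adjusted p = 1.98e-05). Ets1, which restrains plasma cell differentiation, had 319, 289 and 325 CPM when activated, against 588, 588 and 613 CPM when unstimulated (log2 change -0.94 ± 0.058, adjusted p = 6.44e-08). Ikzf3 (-0.60), Zbtb20 (-0.84), Notch2 (-0.59) and Bcl6 (-0.47) fell too, and Bach2 rose (log2 change 0.31 ± 0.048, adjusted p = 1.52e-04). Of factors tied to plasma cell development, Xbp1 had 90.1, 67.9 and 74.3 CPM when activated, against 51.3, 48 and 44.3 CPM when unstimulated (log2 change 0.69 ± 0.08, adjusted p = 1.25e-05) and Prdm1 had 39, 21.6 and 23 CPM when activated, against 21.1, 14.9 and 19.1 CPM when unstimulated (log2 change 0.56 ± 0.12, adjusted p = 0.00156). Zbtb32 rose (log2 change 1.61 ± 0.19, adjusted p = 1.63e-05), and replicate 1 was the highest library of each group. Of 16 plasma cell genes tested 8 rose and 2 fell (median 0.29), against 5 higher without the block and none lower without the pair of replicate 1, and 17 genes of this list summed to 1340 to 1390 CPM in activated and 1170 to 1270 CPM in unstimulated libraries. Sdc1, at or under 2.04 CPM, and Jchain were not called (log2 change 0.072 ± 0.14, adjusted p = 0.71 for Jchain).

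Genes that mark mature B cell subsets fell in 9 of 25 cases and rose in 5, or 3 without the pair of replicate 3. Over all genes tested 18.8% fell and 21% rose. Fcer2a, which encodes Cd23 of follicular B cells, had 106, 149 and 155 CPM in the activated libraries, against 327, 436 and 359 CPM in the unstimulated libraries (log2 change -1.46 ± 0.071, adjusted p = 1.10e-08). Cd9, found on marginal zone and B1 cells, had 65.7, 49.1 and 58.7 CPM when activated, against 36, 31.2 and 35.7 CPM when unstimulated (log2 change 0.75 ± 0.08, adjusted p = 6.01e-06). Of all 15 B cell markers 12 fell and none rose (median -0.63), and Ighd, the IgD heavy chain, fell as well (log2 change -0.54 ± 0.06, adjusted p = 7.26e-06). The Ig genes together took 1.01% to 1.11% of counts in activated libraries, against 1.20% to 1.41% in unstimulated libraries.

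Myc, which drives growth in activated lymphocytes, had 332, 326 and 317 CPM in the activated libraries, against 238, 239 and 192 CPM in the unstimulated libraries. The groups did not overlap (log2 change 0.56 ± 0.12, adjusted p = 0.00186). Its partner Max was not called (log2 change 0.11 ± 0.12, adjusted p = 0.514), and of 11 genes of the network 2 rose and 3 fell, Mnt (-0.39), Mga (-0.37) and Mlxip (-0.20). Among all genes 21% rose and 18.8% fell.

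Most listed genes of the protein synthesis machinery were higher in activated cells. These lists, like the others, are selections made with earlier results of these data known. Ribosome biogenesis genes rose in 50 of 52 cases with none lower (median 0.54), and with library totals 43 rose and none fell. Npm1, a nucleolar chaperone of ribosome assembly, had 4378, 4002 and 3414 CPM in the activated libraries, against 2087, 1508 and 1731 CPM in the unstimulated libraries (log2 change 1.15 ± 0.079, adjusted p = 1.34e-07). Ncl, nucleolin, had 3389, 2755 and 2426 CPM when activated, against 1553, 1442 and 1422 CPM when unstimulated (log2 change 0.94 ± 0.071, adjusted p = 2.56e-07). Fbl, the methyltransferase of ribosomal RNA, changed by 0.87. Subunits and factors of RNA polymerases I and III followed with 18 of 29 higher and 1 lower (median 0.29). Cytosolic ribosomal protein genes rose in 55 of 56 cases (median 0.67), a family with many near-identical pseudogenes, and 31 of 33 translation factors rose with none lower (median 0.71). Eif4a1, the helicase that unwinds messenger leaders, had 815, 739.6 and 649.6 CPM when activated, against 413, 368 and 365 CPM when unstimulated (log2 change 0.94 ± 0.057, adjusted p = 6.44e-08). Mitochondrial ribosomal protein genes rose in 36 of 42 cases (median 0.45), and with library totals 27 rose and 1 fell. These medians stand beside -0.053 for all genes tested. Without the block 44 ribosome biogenesis genes, 12 polymerase genes and 29 translation factors were called higher. The same setting called 40 cytosolic and 24 mitochondrial ribosomal protein genes higher.

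**Figure D3:**
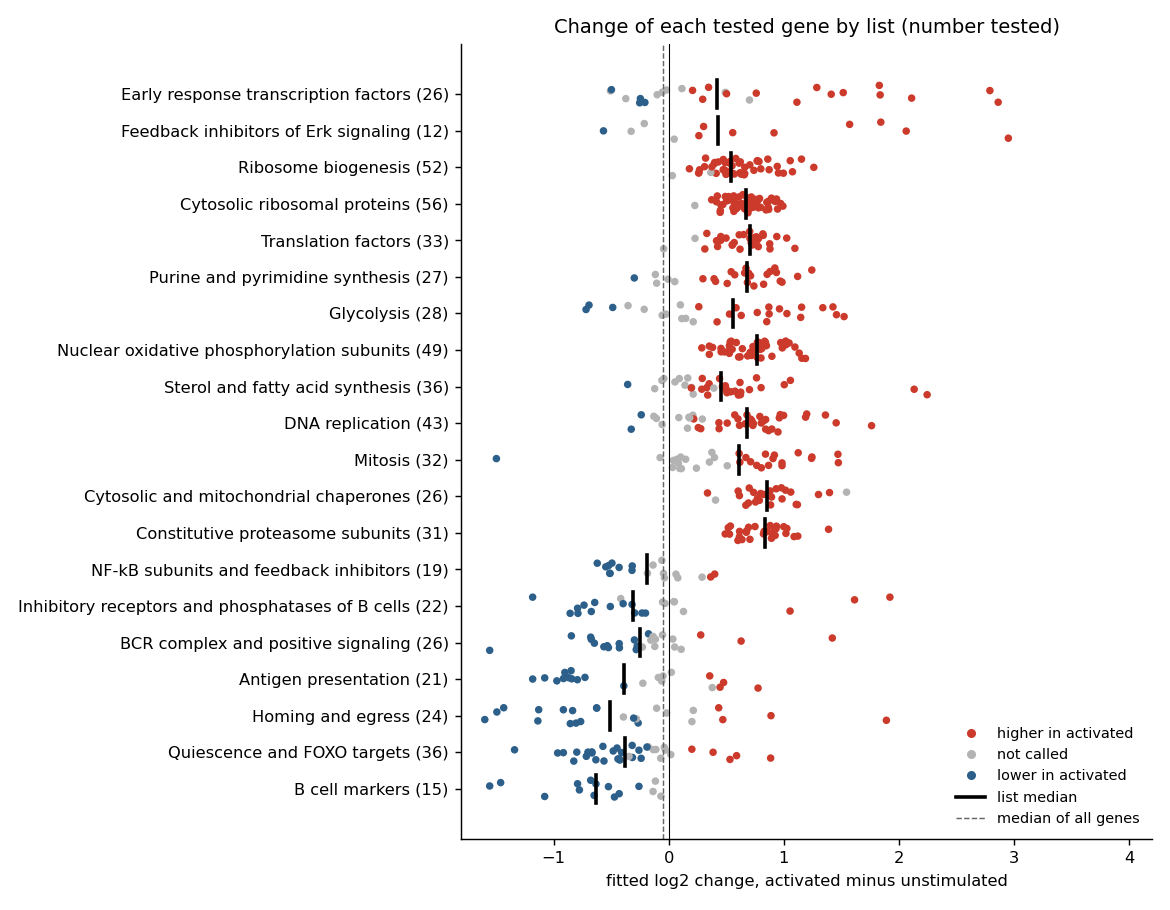
Fitted log2 change (activated minus unstimulated EAE B cells, x axis) of each tested gene in 20 gene lists (y axis, number tested in parentheses), colored by call, with a bar at each list median and a dashed line at the median of all genes (-0.053). Lists of protein synthesis, metabolism, replication, chaperones and proteasome have medians to the right of 0, and lists of antigen presentation, homing, quiescence and B cell markers have medians to the left.

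Metabolic genes rose with them. Ldha, which makes lactate from pyruvate, had 474, 312 and 393 CPM in the activated libraries, against 175, 116 and 147 CPM in the unstimulated libraries. All activated libraries lay above all unstimulated ones (log2 change 1.43 ± 0.06, adjusted p = 5.50e-09), a 2.69-fold increase. Pgk1 had 239.6, 162 and 184 CPM when activated, against 77.1, 59.2 and 75.5 CPM when unstimulated (log2 change 1.46 ± 0.085, adjusted p = 4.71e-08). Pkm, the pyruvate kinase of lymphocytes, had 244, 170.4 and 189 CPM when activated, against 108, 95.3 and 89.8 CPM when unstimulated (log2 change 1.03 ± 0.073, adjusted p = 1.86e-07), and its transcript Pkm-201 took 66.8% to 78.0% of the TPM of the gene in activated libraries, against 52.6% to 65.4% in unstimulated libraries. Of 28 glycolysis genes 17 rose and 3 fell (median 0.56). Genes at the entry of the pathway varied: the glucose transporter Slc2a1 was not called (log2 change -0.057 ± 0.11, adjusted p = 0.713), Slc2a3 fell (-0.72), and the hexokinase Hk2 rose (log2 change 0.96 ± 0.10, adjusted p = 6.59e-06). Of 20 hypoxia genes 2 rose and 4 fell (2 and 10 with library totals, and 2 lower without the pair of replicate 3), and Hif1a, the oxygen-sensitive factor that shares targets with this pathway, was not called (log2 change 0.052 ± 0.088, adjusted p = 0.672). Beside these hypoxia counts, 21% of all genes rose and 18.8% fell.

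All 49 nuclear genes of oxidative phosphorylation on the list, which does not hold every such gene, rose (median 0.77). With library totals 47 did so. Cox5a, a subunit of cytochrome oxidase, had 156, 113 and 123 CPM in the activated libraries, against 67.9, 50.2 and 53.8 CPM in the unstimulated libraries (log2 change 1.19 ± 0.064, adjusted p = 2.28e-08). Atp5b, the catalytic subunit of ATP synthase, had 1236, 913 and 1105 CPM when activated, against 711, 490.3 and 699 CPM when unstimulated (log2 change 0.78 ± 0.12, adjusted p = 1.19e-04). The letters CGCATGCG, the site of the factor NRF1, were found in the promoters of 4 of 38 of these genes (10.5%), against 1.75% of all genes. Those of Atp5j (1.02), Cycs (0.53) and Cox6a1 (0.53) are shown because they stand for a group that rose as a whole (Atp5j and Cox6a1 were chosen after their values were seen), at chr16:84835080-84835159 (Atp5j, minus strand), chr6:50566587-50566666 (Cycs, minus strand) and chr5:115349076-115349155 (Cox6a1, minus strand), with the match in capitals.
Atp5j: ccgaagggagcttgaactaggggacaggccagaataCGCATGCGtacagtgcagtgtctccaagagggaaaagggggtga
Cycs: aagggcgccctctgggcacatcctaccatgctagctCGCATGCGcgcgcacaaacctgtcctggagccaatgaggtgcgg
Cox6a1: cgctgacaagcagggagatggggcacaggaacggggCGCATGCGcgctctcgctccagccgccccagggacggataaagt

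Nucleotide synthesis rose in 22 of 27 genes with 1 lower (median 0.68). Paics, an enzyme of purine synthesis that overlaps Ppat on the opposite strand, had 339.8, 286 and 295 CPM in the activated libraries, against 182, 138 and 168 CPM in the unstimulated libraries (log2 change 0.92 ± 0.069, adjusted p = 2.53e-07). Impdh2, which commits the pathway to guanine nucleotides, had 149.6, 129 and 121 CPM when activated, against 75.4, 67.9 and 65.1 CPM when unstimulated (log2 change 0.94 ± 0.057, adjusted p = 6.44e-08). Cad, the enzyme that opens pyrimidine synthesis, had 113, 112 and 118 CPM when activated, against 61, 66 and 62.2 CPM when unstimulated (log2 change 0.85 ± 0.09, adjusted p = 4.95e-06). None of the 3 overlapped between groups. The E-box CACGTG, a site of Myc and of other factors, stood in the promoters of 6 of 24 genes of this list (25%), 4 of 46 ribosome biogenesis genes (8.70%) and 3 of 38 oxidative phosphorylation genes (7.89%), against 6.86% of all genes. It was also found before Ldha. The E-box stretches of Ldha, Impdh2, Atic (0.74) and Tyms (0.57) are printed as examples of genes that rose (Tyms was chosen after its value was seen), at chr7:46845720-46845797 (Ldha, plus strand), chr9:108560290-108560367 (Impdh2, plus strand), chr1:71557113-71557155 (Atic, plus strand) and chr5:30073645-30073722 (Tyms, minus strand), with the match in capitals.
Ldha: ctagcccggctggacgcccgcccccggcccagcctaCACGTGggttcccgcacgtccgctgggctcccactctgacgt
Impdh2: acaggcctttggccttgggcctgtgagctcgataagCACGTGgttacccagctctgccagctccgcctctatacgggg
Atic: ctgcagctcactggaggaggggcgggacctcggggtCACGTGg
Tyms: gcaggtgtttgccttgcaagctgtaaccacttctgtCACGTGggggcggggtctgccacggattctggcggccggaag

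Amino acid supply was mixed. Of 38 genes of the Atf4 program, the tRNA synthetases and one-carbon metabolism, 26 rose and 2 fell, or none without the block (median 0.43), though Atf4 itself was not called (log2 change 0.085 ± 0.059, adjusted p = 0.274). Psat1, an enzyme of serine synthesis, had 314, 277 and 246 CPM in the activated libraries, against 138, 130.1 and 132 CPM in the unstimulated libraries (log2 change 1.05 ± 0.078, adjusted p = 2.30e-07). Asns, asparagine synthetase, had 45, 34.9 and 28.2 CPM when activated, against 21.1, 14 and 17.1 CPM when unstimulated (log2 change 1.03 ± 0.11, adjusted p = 5.10e-06). The 2 that fell were Trib3 (-0.34) and Ddit3 (-0.38), markers of the stress arm of the same program. Amino acid transporters divided 6 higher to 5 lower among 19, against 4 higher and 9 lower with library totals. Slc3a2 rose (log2 change 0.39 ± 0.095, adjusted p = 0.00449) and its partner Slc7a5 was not called (log2 change 0.23 ± 0.087, adjusted p = 0.0522). Polyamine and iron genes gave 8 higher and 2 lower of 16. Odc1, the first enzyme of polyamine synthesis, had 384, 316 and 281 CPM when activated, against 161, 143 and 154 CPM when unstimulated (log2 change 1.09 ± 0.078, adjusted p = 1.87e-07), and Tfrc, the transferrin receptor, had 293, 251 and 244 CPM when activated, against 181, 126 and 176 CPM when unstimulated (log2 change 0.71 ± 0.10, adjusted p = 1.00e-04).

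Lipid synthesis rose in 25 of 36 genes with 1 lower (median 0.45). Fads1, a fatty acid desaturase, changed most, with 16.2, 11.8 and 12.4 CPM in the activated libraries, against 3.28, 2.91 and 2.32 CPM in the unstimulated libraries (log2 change 2.24 ± 0.16, adjusted p = 1.50e-07). Scd1 was the gene that fell (log2 change -0.36 ± 0.057, adjusted p = 1.93e-04), while its paralog Scd2 rose (0.80). Transcripts of the master factors Srebf1 and Srebf2 were not called. Motifs tied to lipid, Atf4 and secretory genes were also counted: the sterol element CACNCCAC in 2 of 26 lipid genes (7.69%, against 6.05% of all genes), the Atf4 letters TGATGNAAT in 3 of 28 genes (10.7%, against 0.910%) and the Xbp1 letters TGACGTGG, which share letters with the E-box, in 0 of 24 secretory genes (against 0.603%).

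Genes of protein folding and turnover were mostly higher. Cytosolic and mitochondrial chaperones rose in 24 of 26 cases with none lower (median 0.85). Hsp90ab1 had 4852, 4051 and 4000.3 CPM in the activated libraries, against 2206, 1853 and 1883 CPM in the unstimulated libraries (log2 change 1.12 ± 0.066, adjusted p = 4.71e-08). Hspd1 and Hspe1, the mitochondrial chaperonin pair which overlap on opposite strands, changed by 1.30 and 1.40. All 31 listed constitutive proteasome subunits rose (median 0.84), also with library totals and with upper quartile scaling. Psma5 had 196, 133 and 127 CPM when activated, against 60.5, 51.9 and 58.5 CPM when unstimulated (log2 change 1.39 ± 0.09, adjusted p = 9.25e-08). Of 28 genes of the unfolded protein response and folding in the endoplasmic reticulum, 20 rose and 4 fell (median 0.52), against 7 lower with library totals and 2 without the pair of replicate 2. The chaperones Hsp90b1 (0.78), Pdia3 (0.82) and Hspa5 (0.62) rose, and the stress sensor Eif2ak3 (-0.46) and the degradation factor Herpud1 (-0.41) fell.

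The G1 cyclins, Cdks and Cdk inhibitors split, with 8 of 20 higher and 7 lower (6 and 8 with library totals, and 4 lower without the block). Ccnd2, the D cyclin induced by the antigen receptor, had 745, 449.7 and 463 CPM in the activated libraries, against 323, 224 and 254 CPM in the unstimulated libraries. Replicate 1 was the highest of both groups, and the groups did not overlap (log2 change 1.02 ± 0.083, adjusted p = 5.26e-07). Cdk4 (0.62) and Cdk6 (0.66) rose with it, Ccnd3 fell (-0.31), and Ccne1 and Ccne2 were not called. DNA replication genes rose in 32 of 43 cases and fell in 2, Cdt1 and Tk1, neither of them called without the block (median 0.68). Pcna, the sliding clamp of replication, had 307, 243 and 228 CPM when activated, against 143, 139.8 and 131 CPM when unstimulated (log2 change 0.89 ± 0.077, adjusted p = 8.15e-07). Mcm6, a subunit of the replicative helicase, had 176, 109 and 132 CPM when activated, against 64.3, 52.4 and 61.5 CPM when unstimulated (log2 change 1.20 ± 0.074, adjusted p = 6.44e-08). Mitosis genes rose in 17 of 32 cases, with 12 called without the block, and fell in 1, Cdc25b (-1.50). Mki67, a marker of cycling cells, had 103, 48.5 and 93.3 CPM when activated, against 64.4, 32.5 and 50.7 CPM when unstimulated, with overlapping groups (log2 change 0.71 ± 0.07, adjusted p = 2.88e-06). Cdk1, the kinase that drives entry into mitosis, was low and had 4.33, 1.41 and 2.87 CPM when activated, against 1.19, 0.654 and 1.10 CPM when unstimulated (log2 change 1.47 ± 0.22, adjusted p = 9.33e-05), groups that did not overlap. Replicate 2 was the lowest library of both groups for Mki67, Top2a and Kif11.

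E2F factors act on G1 and S phase genes, and their letters TTTGGCGC or TTTCGCGC stood in the promoters of 6 of 36 replication genes (16.7%) and 2 of 16 genes of the G1 list (12.5%), against 0.759% of all genes. Orc1, Pola1, Rfc3 and Rbl1 were among the matching genes and are not printed. Stretches were chosen by direction of change, so they do not link the motif to it. The stretches of Mcm6, Mcm5 (0.95), Uhrf1 (1.45) and Cdc25a (0.67) are shown because all 4 genes rose, and Cdc25a was chosen after its value was seen. They lie at chr1:128359709-128359788 (Mcm6, minus strand), chr8:75109324-75109403 (Mcm5, plus strand), chr17:56304092-56304171 (Uhrf1, plus strand) and chr9:109875476-109875555 (Cdc25a, plus strand), with the match nearest the start in capitals.
Mcm6: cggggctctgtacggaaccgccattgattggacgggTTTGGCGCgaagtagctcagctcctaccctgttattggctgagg
Mcm5: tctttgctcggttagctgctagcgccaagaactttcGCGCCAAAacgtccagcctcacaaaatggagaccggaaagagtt
Uhrf1: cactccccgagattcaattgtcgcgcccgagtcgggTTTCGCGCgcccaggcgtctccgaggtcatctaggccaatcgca
Cdc25a: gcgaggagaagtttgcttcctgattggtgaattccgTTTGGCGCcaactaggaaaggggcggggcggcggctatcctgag

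Chromatin enzymes moved in both directions, 7 higher and 8 lower of 22, or 4 lower without the pair of replicate 1. Ezh2, the methyltransferase of Polycomb complex PRC2 and a factor of germinal center B cells, had 278, 199 and 199 CPM in the activated libraries, against 83, 55.4 and 74.4 CPM in the unstimulated libraries. This 3.17-fold difference was larger than the spread in either group (log2 change 1.67 ± 0.08, adjusted p = 1.10e-08). Its paralog Ezh1 fell (log2 change -0.33 ± 0.064, adjusted p = 0.00103). The arginine methyltransferases Prmt1 (0.82) and Prmt5 (0.82) rose, and Kmt2a (-0.55) and Tet3 (-0.43) fell.

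Of 20 genes of the Bcl2 family and death receptors 8 rose and 1 fell (7 and 4 with library totals). Bcl2a1b had 154, 135 and 112 CPM in the activated libraries, against 90.6, 61.8 and 71.2 CPM in the unstimulated libraries (log2 change 0.84 ± 0.095, adjusted p = 9.06e-06) and Bcl2a1d changed by 0.92, copies so alike that reads cannot be assigned between them with certainty. Bcl2l1, which encodes the survival protein Bcl-xL, rose (log2 change 0.45 ± 0.093, adjusted p = 0.00156), as did the death-promoting Bcl2l11 (log2 change 0.41 ± 0.057, adjusted p = 7.06e-05) and Pmaip1 (0.68). Mcl1 fell (log2 change -0.25 ± 0.073, adjusted p = 0.0147) with overlapping groups, and Bcl2 was not called.

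Interferon-stimulated genes had no common direction, with 9 of 38 higher and 11 lower (median -0.047), where 21% of all genes rose and 18.8% fell. Without the replicate block none was called higher and 1 lower, with library totals 4 were higher and 15 lower, and without the pair of replicate 2 the direction turned, with 12 higher and 3 lower. Samd9l had 413, 309 and 377 CPM in the activated libraries, against 736, 458 and 664 CPM in the unstimulated libraries (log2 change -0.74 ± 0.072, adjusted p = 2.37e-06), and Bst2 had 20.5, 7.04 and 8.46 CPM when activated, against 9.85, 4.54 and 3.98 CPM when unstimulated (log2 change 0.93 ± 0.14, adjusted p = 1.16e-04). Replicate 1 was the highest library of both groups for each, and the part of its interferon signature in these calls was not tested.

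Whether activation acted differently in EAE mice was tested against B cells of naive C57BL/6 mice given the same agents, as the difference between the log2 changes of the 2 sets over 30 B cell libraries. The sets of mice share no libraries. Of 17341 genes, 15 differed at an adjusted p under 0.05 (0.0865%), all with a more positive change in EAE cells, and 844 had an unadjusted p under 0.05, where 5% of the tests is 867. CPM are here on the scale of the 30 libraries. Kntc1, part of the complex that monitors chromosome attachment, had 22.9, 11.5 and 17.2 CPM in activated EAE libraries, against 5.49, 2.80 and 4.72 CPM in unstimulated EAE libraries. The same gene had 16.2, 9.65 and 10.3 CPM in activated naive libraries, against 8.84, 6.15 and 6.85 CPM in unstimulated naive libraries. Its change was 1.98 on the log2 scale in EAE and 0.72 in naive cells (difference 1.28 ± 0.14, adjusted p = 9.42e-05). Mki67 had 106, 49.2 and 94.6 CPM in activated EAE libraries, against 64.7, 33.4 and 51.6 CPM in unstimulated EAE libraries. In naive cells it had 108, 65.4 and 88.1 CPM in activated naive libraries, against 119.8, 82.5 and 79.4 CPM in unstimulated naive libraries. The changes of Mki67 were 0.71 in EAE and -0.093 in naive cells (difference 0.83 ± 0.11, adjusted p = 6.73e-04). Top2a, the topoisomerase that untangles replicated DNA, had 157, 72.4 and 119 CPM in activated EAE libraries, against 64.6, 32.4 and 53.7 CPM in unstimulated EAE libraries. It had 120.1, 74 and 94.3 CPM in activated naive libraries, against 89.5, 63.8 and 66.4 CPM in unstimulated naive libraries, and its changes were 1.19 in EAE and 0.40 in naive cells (difference 0.81 ± 0.11, adjusted p = 6.73e-04). For all 3 genes unstimulated naive libraries had higher mean levels than unstimulated EAE libraries, and activated libraries of the 2 sets overlapped.

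Dtl (difference 0.91 ± 0.12, adjusted p = 8.30e-04), an adaptor that marks proteins for destruction in S phase, and Hells (difference 0.70 ± 0.12, adjusted p = 0.011), a chromatin remodeler, followed. Others were named after their values were seen, because the count was small: Cdc6, Kif11, Mcm10, Rrm2, Chek1, Uhrf1 and Ncaph, which act in DNA replication, nucleotide supply or mitosis, and Gfi1 and Emb. The 43 DNA replication genes had a median change of 0.68 in EAE and 0.35 in naive cells, and the 32 mitosis genes 0.61 in EAE and 0.16 in naive cells, beside -0.053 and -0.020 over 16451 genes. Medians also differed outside these lists. Antigen presentation genes had -0.39 in EAE and -0.026 in naive cells, and B cell markers had -0.63 and -0.38. No gene of either list was called for a difference. Lists of ribosome biogenesis (0.54 in EAE and 0.60 in naive cells), proteasome (0.84 in both) and oxidative phosphorylation (0.77 in EAE and 0.83 in naive cells) had near medians. In these, too, no gene was called for a difference. The calls rested on the block: without it 0 of 17341 genes were called and 405 had an unadjusted p under 0.05, whereas DESeq2 with the block called 37, of which 31 were more positive and 6 more negative in EAE cells. Without the EAE libraries of replicate 1 the count was 5, and without those of replicate 3 it was 8. With the 12 libraries of the 4 groups alone none of the more positive changes was called, and 1 gene, Gm10175, had a more negative change. Ighd had the smallest p of the more negative changes and was not called (difference -0.30 ± 0.07, adjusted p = 0.172).

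**Figure D4:**
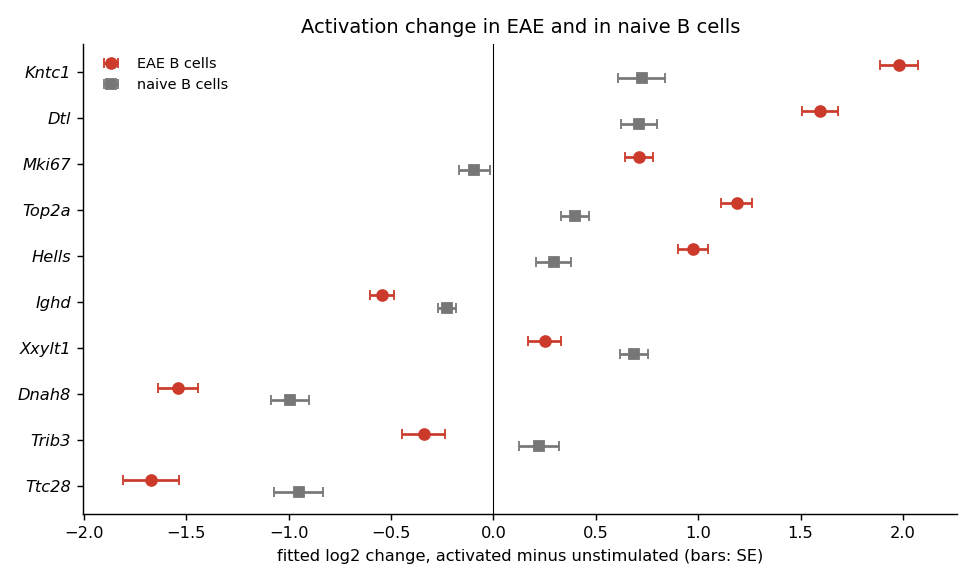
Fitted log2 change with activation (x axis, bars give the SE) in EAE (circles) and naive (squares) B cells for 10 genes (y axis), the 5 of lowest p on either side of the difference among genes that averaged 10 CPM or more. Kntc1, Dtl, Mki67, Top2a and Hells had a larger change in EAE cells and were called, and the lower 5 genes were not.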

How the data were processed

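RNA sequencing libraries of mouse B cells were used, taken from purified spleen and lymph node cells and sequenced on an Illumina HiSeq 1500. The authors quantified reads with Salmon (submitters' processing notes, build GRCm38) and deposited, for each transcript, estimated counts and TPM, which were made per library and not pooled. Salmon's strand setting is not given in the sources used here. Here the deposited estimated counts were summed per gene (GENCODE M21) and rounded, and 0.158% to 0.210% of counts had no gene and were left out. The deposited TPM served only for shares of transcripts within a gene.

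Genes passing edgeR's filterByExpr (minimum count 10) were tested with edgeR 4.0.16 (R 4.3.3, limma 3.58.1): TMM scaling and the quasi-likelihood F-test, with replicate number as a block and all 15 EAE B cell libraries sharing the spread. Values were adjusted by Benjamini-Hochberg over all genes tested, and a call was an adjusted p under 0.05. The difference between EAE and naive cells was fitted on 30 B cell libraries with the block within each set. The numbers come from the titles, and the labels do not state that they pair the samples. They were taken to do so because deviations of same-numbered activated and unstimulated libraries correlated at 0.15, 0.209 and 0.342, against -0.22 to 0.0751 for other numbers. Deviations were taken from group means, which ties these correlations to one another, so they do not settle the pairing. DESeq2 1.42.0 was an alternative, beside other scalings, filters, library sets and omitted libraries. Tables were handled in Python 3.11.15 with pandas 2.3.3.

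Depth was 36285628 to 62073703 counts over the 6 libraries. The test was checked on simulated counts for EAE B cell activation (16637 genes), where 48% of genes changed by 1.5-fold and 98% of those changed by 2-fold were recovered. The simulation gave every gene the same fixed spread and no difference between replicate numbers. Changed genes were drawn only from those with higher counts, so these rates do not describe all genes tested. Promoters came from RefSeq (GRCm38.p6), and 893 of 1127 listed genes had one.

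Members and gene lists were chosen with earlier results of these data known. Genes named were the 10 largest increases and decreases among calls that averaged 10 CPM or more and had one direction in 3 of 3 pairs, preselected members of the lists, up to 4 called members of each list by p in each direction, Btla, Tnfrsf14, Hif1a, Myc, Ezh2, Il6 and Ldha, and the 5 genes of lowest p on either side of the difference that averaged 10 CPM or more. Exceptions, chosen after their values were seen, were Ighd, Atp5j, Cox6a1, Cdc25a, Tyms, Spp1, Rnf150, Fosl1, Fosl2, Jund, Gm10175 and other genes called for the difference, and a few genes are not reported here. Of 397 named genes, 11 overlap exons of another gene on their own strand and 45 do so on the opposite strand, and copies such as Bcl2a1b and Bcl2a1d, H2-K1 and H2-D1 or the ribosomal proteins are uncertain.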

Additional observations from a re-analysis of the deposited data

Results flagged for a closer look

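A test of the difference between the activation changes of EAE and naive B cells (edgeR quasi-likelihood test, Benjamini-Hochberg over 17341 genes) passed an adjusted p of 0.05 for 15 genes, each with a more positive change in EAE cells. Differences on the log2 scale were 1.28 for Kntc1, 0.81 for Top2a, 0.83 for Mki67, 0.91 for Dtl, 1.81 for Cdc6, 0.70 for Hells, 0.98 for Kif11, 1.37 for Gfi1, 0.85 for Emb, 1.04 for Mcm10, 1.04 for Rrm2, 0.93 for Chek1, 0.62 for Uhrf1 and 0.74 for Ncaph. Cdc6, which loads the replicative helicase, had 8.62, 4.01 and 5.70 CPM in activated EAE libraries, against 2.27, 1.51 and 1.45 CPM in unstimulated EAE libraries. It had 3.83, 1.82 and 2.60 CPM in activated naive libraries, against 4.34, 1.61 and 2.73 CPM in unstimulated naive libraries. Rrm2, a subunit of ribonucleotide reductase, had 26.4, 7.25 and 15.5 CPM in activated EAE libraries, against 9.33, 4.79 and 9.01 CPM in unstimulated EAE libraries. In naive cells Rrm2 had 14.9, 9.73 and 11.8 CPM in activated naive libraries, against 16.5, 12.2 and 9.39 CPM in unstimulated naive libraries. Gfi1, a transcriptional repressor, had 3.43, 2.88 and 2.62 CPM in activated EAE libraries, against 0.748, 0.695 and 0.754 CPM in unstimulated EAE libraries. It had 3.04, 2.89 and 2.84 CPM in activated naive libraries, against 2.04, 2.06 and 1.52 CPM in unstimulated naive libraries. The calls depended on the replicate block and on the libraries that shared the spread. Groups of 3 libraries were too small for a search for single libraries far from their group.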

How the results depend on the processing

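The calls of activation changed with the settings as follows. Genes lower numbered 3190, and 1880 without the replicate block, 1845 with the 6 libraries alone and 4949 with library totals. Genes higher numbered 3576, and 2523 without the replicate block. At 2-fold or more, 475 higher and 498 lower genes became 310 and 752 with library totals and 298 and 320 with a filter of 1 CPM in 3 of 6 libraries. Leaving out 1 library or pair gave 2736 to 3485 genes higher, 1790 to 3059 lower, 384 to 541 at least 2-fold higher and 356 to 540 at least 2-fold lower. The lowest counts of lower genes came without the pair of replicate 1 (1790) and without its activated library (2026). The 15 genes called for a difference between EAE and naive cells became 0 without the replicate block, 37 with DESeq2 (31 more positive and 6 more negative), 14 with library totals and, with the 12 libraries alone, 1 more negative gene and 0 more positive, and 5 to 15 without the EAE libraries of 1 replicate number. No gene named and called turned its direction under these settings. Of 397 named genes, 68 lost their call without the replicate block, 16 with library totals, 9 with upper quartile scaling, 43 with the 6 libraries alone and 1 (Klrb1c) with DESeq2. The cause of these shifts was not tested, and the smaller sets also held fewer samples. Genes under 1 CPM rested on fewer counts, and the effect of depth on their calls was not tested. Recovery of changes of 1.5-fold in simulated counts was partial.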

Other observations

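Among genes under the mean of 10 CPM, chosen after their values were seen, Spp1, which encodes the secreted protein osteopontin, had 9.23, 8.02 and 9.70 CPM in the activated libraries, against 0.596, 0.271 and 0.742 CPM in the unstimulated libraries (log2 change 4.07 ± 0.29, adjusted p = 1.86e-07). Rnf150 had 12.2, 14.8 and 14.8 CPM when activated, against 0.645, 1.35 and 1.29 CPM when unstimulated (log2 change 3.68 ± 0.14, adjusted p = 5.50e-09). Both were higher in each activated library than in any unstimulated library.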
